A study of Arabidopsis thaliana and Marchantia polymorpha with 6 samples.

Results

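The pericentromeres of the 5 Arabidopsis thaliana chromosomes held 1039 of 6699 AtPIF4 events (15.5%) and 2244 of 16825 AtHY5 events (13.3%). An event is a single position at which the authors' caller placed binding, and it was counted when its centre lay at 11.5 to 17.7 Mb of chromosome 1, 1.1 to 7.2 Mb of chromosome 2, 10.3 to 17.3 Mb of chromosome 3, 1.5 to 6.3 Mb of chromosome 4 or 9 to 16 Mb of chromosome 5. The choice used position only and no score. These windows covered 31.1 Mb, 26.1% of the chromosome length used here, and the rest, 88.0 Mb, is called the arms.

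The values came from DNA affinity purification sequencing (DAP-seq), in which a recombinant protein fixed to beads picks fragments out of purified genomic DNA. AtPIF4 and AtHY5, both made in Escherichia coli, were each offered the DNA of Col-0 seedlings 10 days old, cut to a mean of 200 bp. With a single library per protein there is no replicate error to give, and every interval below is a 95% interval for counting error only. The series also describes an input library of the same seedlings, and MpPIF, MpHY5 and input libraries from the liverwort Marchantia polymorpha (Tak-1 gemmalings, 21 days old), which were not analysed here. Read depth is unknown, so a larger number of AtHY5 than AtPIF4 events is not read as more binding.

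Pericentromeres flank the centromeres and in Arabidopsis are poor in genes and rich in transposons, satellite repeats and densely packed, heavily methylated chromatin. PIF4 is a basic helix-loop-helix factor that promotes elongation in shade and warmth, HY5 is a basic leucine zipper factor that promotes development in light, and both are known to bind G-box elements. The DNA was naked, so closed chromatin could not limit what the proteins reached. It was amplified only after elution, so methyl groups of the seedlings' DNA could still be on it, and methylation was not measured here.

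The windows were gene-poor in the gene table, as pericentromeres are known to be. Protein-coding genes filled 21.8% of the pericentromeric bases, against 65.5% of the arm bases, at 109 and 273 genes per Mb. Pseudogenes filled 27.4% of the pericentromeric and 2.06% of the arm bases. A share of 49.6% of pericentromeric bases and 31.1% of arm bases had no annotated gene of any type.

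Both proteins had fewer listed events per base in the pericentromeres than in the arms. Every density here divides by all bases of a place, with no allowance for repeats in which reads cannot be placed uniquely. How reads that match several places were handled is not stated, and its part in these ratios was not tested. AtPIF4 had 33.4 events per Mb in the pericentromeres (31.4 to 35.5) and 64.3 in the arms (62.6 to 66.0), a ratio of 0.520 (0.486 to 0.555). AtHY5 had 72.2 per Mb in the pericentromeres (69.2 to 75.2) and 166 in the arms (163 to 168), a ratio of 0.436 (0.417 to 0.456). The ratio lay below 1 on all 5 chromosomes for each protein. Its lowest and highest chromosome values were 0.462 and 0.586 for AtPIF4, and 0.404 and 0.508 for AtHY5, so the lower density was not carried by 1 chromosome.

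The AtHY5 density lay further below its arm value than the AtPIF4 density did. The AtPIF4 ratio was 1.19 times that of AtHY5 (1.1 to 1.29). Put another way, the lists held 2.16 AtHY5 events for each AtPIF4 event in the pericentromeres and 2.58 in the arms.

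In bins of 0.5 Mb the lower counts spread over nearly all of the windows. A pericentromeric bin held a median of 15 AtPIF4 events (4 to 41 over 61 bins), against 31 in an arm bin (11 to 63 over 171 bins). For AtHY5 the medians were 32 (4 to 79) in the pericentromeres and 82 (36 to 151) in the arms. All 61 pericentromeric bins lay below the arm median for AtHY5, and 56 of 61 did for AtPIF4. For AtHY5, 36 of the 61 also lay below the lowest arm bin, against 12 of 61 for AtPIF4.

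**Figure D1:**
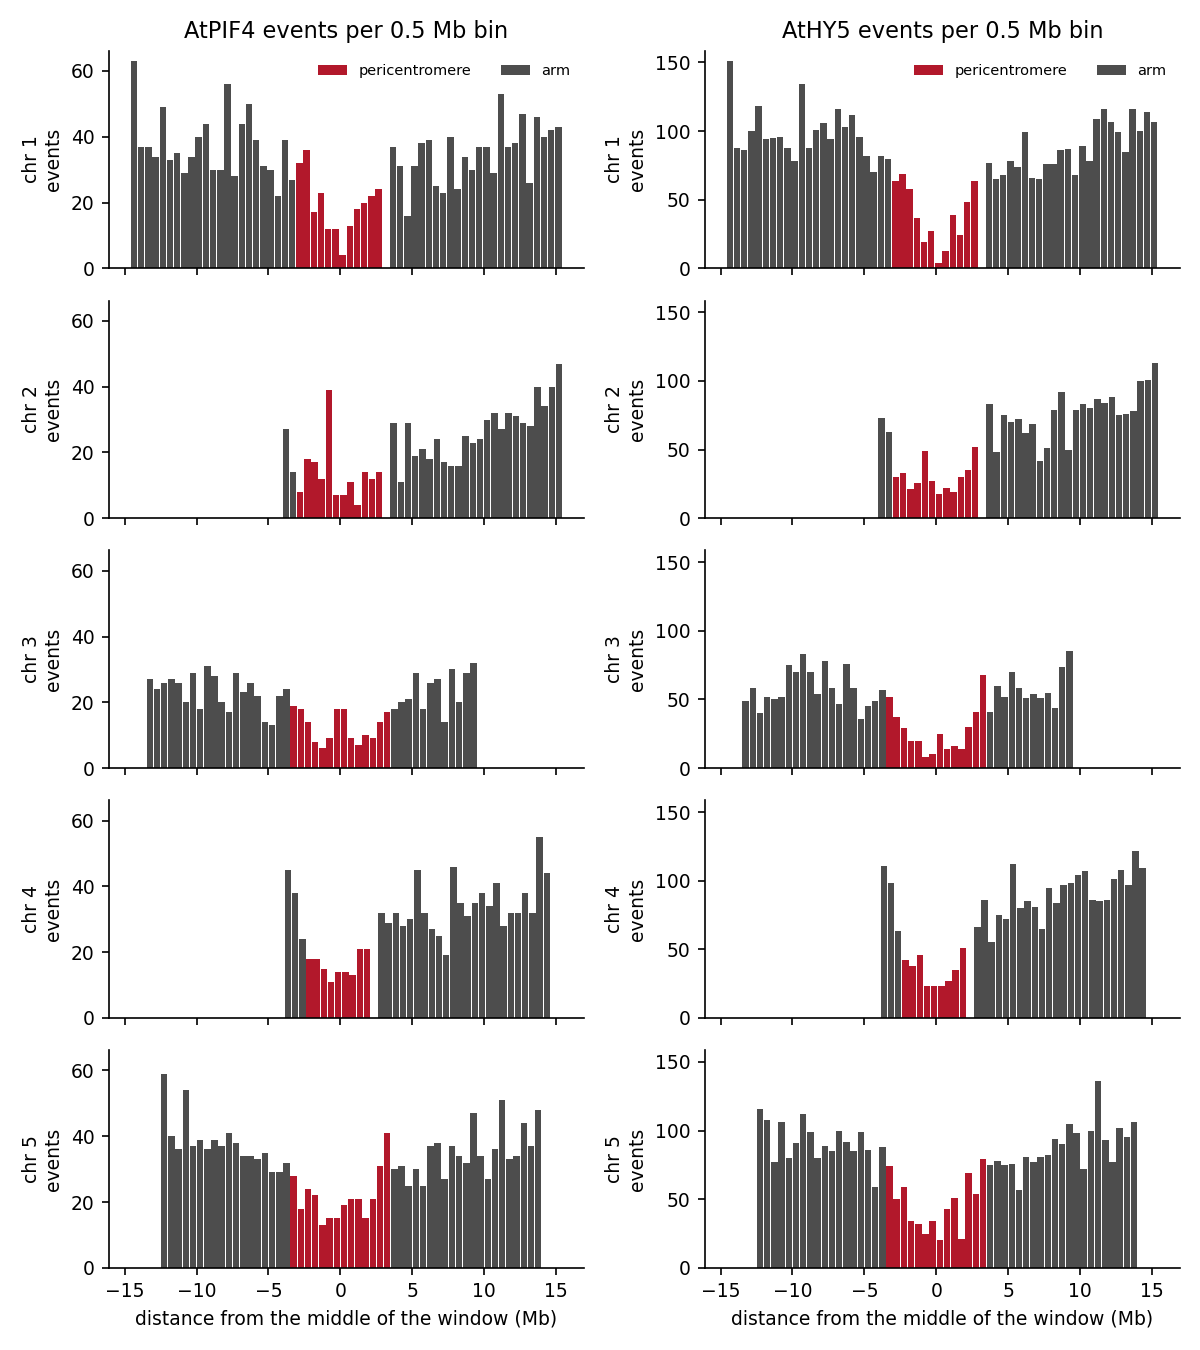
Events per 0.5 Mb bin (bars) along each chromosome (rows), by distance from the middle of the pericentromeric window in Mb, for AtPIF4 (left) and AtHY5 (right), with pericentromeric bins in red and arm bins in grey. Most of the lowest bins lie near the middle, down to 4 on chromosome 1 for both proteins, and the AtPIF4 bin of 39 events on chromosome 2 stands above its neighbours.

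The AtHY5 events were sparser toward the centre in 4 of the 5 windows beyond counting error, and the AtPIF4 events of some windows were not. When each window was cut into 3 equal lengths, AtHY5 had 45.1 events per Mb in the central length and 85.7 in the outer lengths, a ratio of 0.527 (0.475 to 0.584), and the central value was lower on all 5 chromosomes. On chromosome 2 it was 57.0 (47.1 to 68.4), against 63.0 in the outer lengths (55.5 to 71.2), and these intervals overlap. AtPIF4 had 27.4 and 36.4 per Mb, a ratio of 0.752 (0.654 to 0.863), lower on 3 of 5 chromosomes. On chromosome 2 the central length held 31.0 AtPIF4 events per Mb and the outer lengths 24.6, and on chromosome 3 the values were 25.3 and 25.1. The step at the window edges themselves was small. In the 0.5 Mb just inside the 10 edges there were 42.8 AtPIF4 and 120 AtHY5 events per Mb, against 49.8 AtPIF4 and 135 AtHY5 events per Mb in the 0.5 Mb just outside.

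Stretches without any event were longer in the pericentromeres. AtPIF4 had 51 gaps over 100 kb between neighbouring events there and 27 in the arms, and AtHY5 had 20 and 0. The longest AtPIF4 gap, 311 kb between event centres at chr1:14539231-14849805, and the longest AtHY5 gap, 326 kb at chr1:14598519-14924026, overlapped. Each wholly contained 3 protein-coding genes. The AtHY5 gap of 282 kb at chr3:13612519-13894518 wholly contained none. Events also had a neighbour of the same protein less often: 14.1% of AtPIF4 events had another AtPIF4 event within 1000 bp in the pericentromeres and 19.3% in the arms, a difference of -5.20 points (-7.45 to -2.73). For AtHY5 the shares were 29.1% and 39.4%, a difference of -10.3 points (-12.3 to -8.24).

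A gap of another kind lay on chromosome 5. The stretch between the AtHY5 events centred at the ends of chr5:14306742-14510524 wholly contained 47 protein-coding genes over 204 kb. As a gap of the AtHY5 list it held 0 AtHY5 events by definition, and it held 2 AtPIF4 events. Of these 47 genes, 22 had exactly the same length, 357 bp, and 13 of the spacings between neighbouring genes of that length lay between 2190 and 2197 bp. A further pattern repeated at 59.3 kb: 8 pairs of genes had start positions 59.3 kb apart within 5 bp, among them PGLP1, which encodes a phosphoglycolate phosphatase of photorespiration, and AT5G36790. Gene lengths and spacings were thus near-regular in this stretch, which was looked at after its lack of events was seen. Whether the genes share sequence was not tested, and the sources used here do not say how reads that match several places were handled.

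Genes with a same-length protein-coding gene within 100 kb, a group chosen after that stretch was seen, were then counted over all windows. Of 81 such pericentromeric genes, 6 had an AtPIF4 event in the body or within 1000 bp (7.41%, 3.44% to 15.2%) and 7 an AtHY5 event (8.64%, 4.25% to 16.8%). Among the other 3302 pericentromeric genes the shares were 16.8% for AtPIF4 and 34.1% for AtHY5. The chromosome 5 stretch holds 32 of the 81, and of the 49 elsewhere 4 had an AtPIF4 event (8.16%, 3.22% to 19.2%) and 7 an AtHY5 event (14.3%, 7.10% to 26.7%), so that without the stretch the AtPIF4 interval takes in the share of the other genes and the AtHY5 interval lies below it. Of the 391 arm genes of this kind, 50.1% had an AtHY5 event (45.2% to 55.1%), against 49.6% of the other arm genes.

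The contrast between pericentromere and arm was smaller inside genes than far from them. Inside protein-coding genes, AtPIF4 had 56.7 events per Mb of gene in the pericentromeres (51.2 to 62.7) and 66.5 in the arms (64.5 to 68.7), a ratio of 0.852 (0.765 to 0.946). AtHY5 had 140 (131 to 149) and 174 (171 to 178), a ratio of 0.802 (0.750 to 0.858). The ratio inside genes lay below 1 on all 5 chromosomes for each protein, but its interval excluded 1 on 2 of 5 for AtPIF4 and 3 of 5 for AtHY5. More than 1000 bp from any protein-coding gene, AtPIF4 had 26.2 events per Mb in the pericentromeres and 58.9 in the arms, a ratio of 0.444 (0.394 to 0.500). AtHY5 had 49.6 and 150 there, a ratio of 0.330 (0.304 to 0.358). These intervals do not overlap those inside genes.

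**Figure D2:**
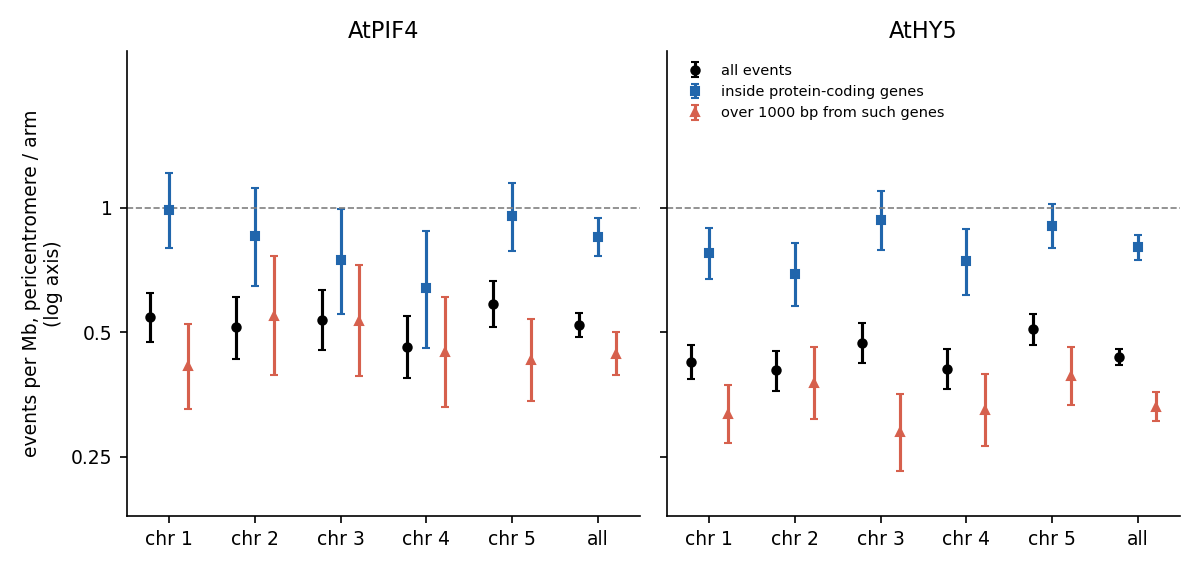
Events per Mb in the pericentromere over events per Mb in the arms (log axis), by chromosome and over all, for AtPIF4 (left) and AtHY5 (right). Points are ratios with 95% counting intervals, and the dashed line marks equal density. All-event ratios (black) run from 0.404 to 0.586, and ratios inside protein-coding genes (blue) lie above those far from genes (red) on every chromosome.

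The share of events inside protein-coding genes moved with the gene content. For AtPIF4 37.0% of pericentromeric and 67.8% of arm events lay in such a gene, a difference of -30.9 points (-34.0 to -27.7). For AtHY5 the shares were 42.2% and 68.9%, a difference of -26.7 points (-28.9 to -24.6). In the pericentromeres both shares stood above the 21.8% of bases that are genic, and in the arms they stood close to the 65.5%. When pseudogenes and noncoding RNA genes were counted as genes too, the differences shrank to -7.29 points for AtPIF4 and -7.51 points for AtHY5.

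Resolved by distance, both proteins had their highest density between 200 and 500 bp inside a gene end, in either place. There AtPIF4 had 83.9 events per Mb in the pericentromeres and 94.7 in the arms (ratio 0.886, 0.733 to 1.06), and AtHY5 had 202 and 273 (ratio 0.740, 0.657 to 0.832). The contrast grew at the gene end. In the 200 bp just outside a gene AtPIF4 had 35.0 and 70.5 events per Mb (ratio 0.497, 0.351 to 0.688) and AtHY5 84.1 and 173 (ratio 0.487, 0.391 to 0.600). Beyond 20 kb from any gene, a distance the arms hardly have, AtPIF4 had 26.3 and AtHY5 41.4 events per Mb in the pericentromeres. For events outside genes the median distance to the nearest gene was 4783 bp in the pericentromeres and 605 bp in the arms for AtPIF4, and 3509 and 606 bp for AtHY5. The same medians over the bases outside genes were 5140 and 623 bp, so AtHY5 events lay closer to genes than the pericentromeric bases did (3122 to 3974 bp), while the AtPIF4 interval (3814 to 5597 bp) held the base value.

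**Figure D3:**
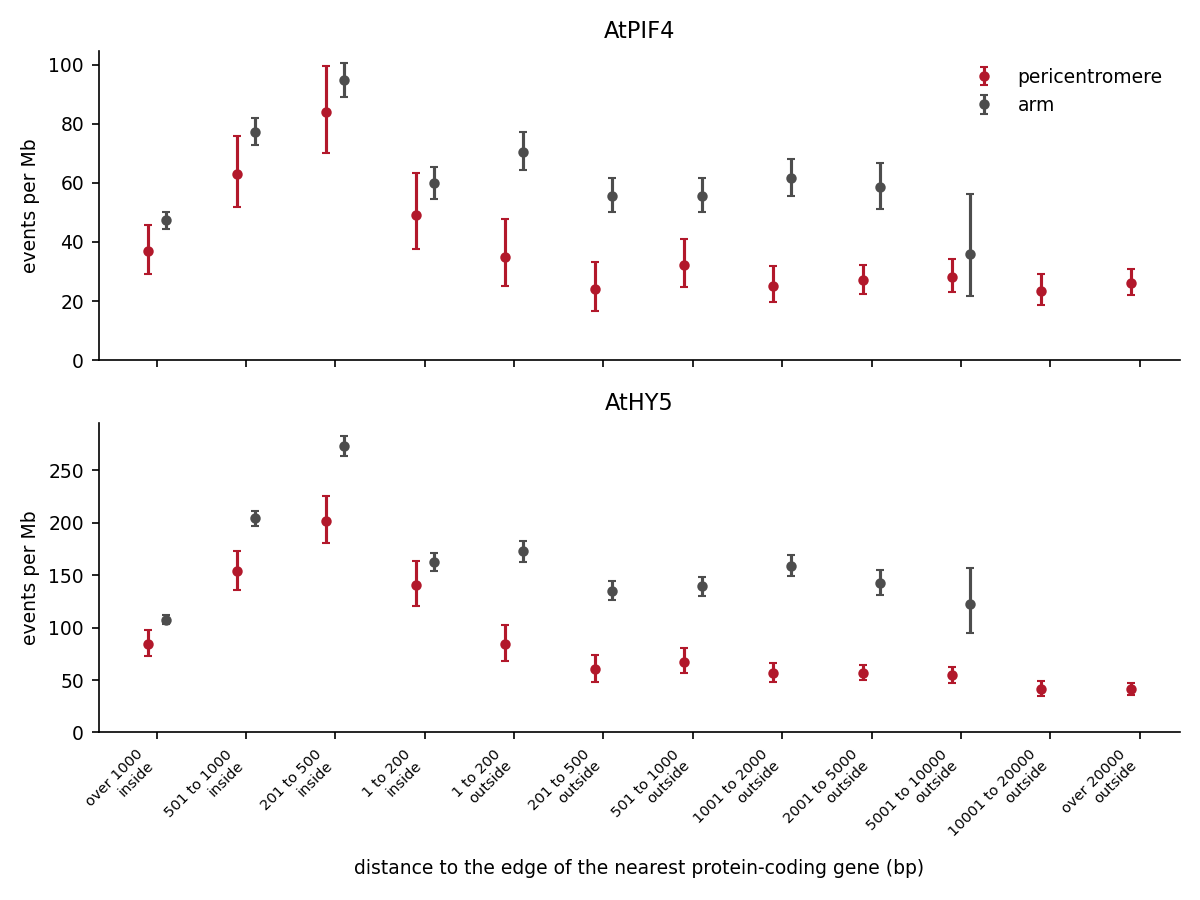
Events per Mb (points, with 95% Poisson intervals) by distance to the edge of the nearest protein-coding gene, from deep inside a gene (left) to over 20000 bp outside (right), for AtPIF4 (top) and AtHY5 (bottom). Pericentromeric values (red) peak at 83.9 and 202 per Mb at 200 to 500 bp inside a gene end, and arm values for classes with under 0.1 Mb of sequence are not drawn.

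Pseudogenes held 255 pericentromeric AtPIF4 events (24.5%) and 445 AtHY5 events (19.8%). Per Mb of pseudogene AtPIF4 had 29.9 events in the pericentromeres and 51.8 in the arms (ratio 0.577, 0.454 to 0.739), and AtHY5 had 52.2 and 118 (ratio 0.443, 0.375 to 0.523). Pericentromeric sequence with no annotated gene had 23.9 AtPIF4 and 51.5 AtHY5 events per Mb, against 58.2 AtPIF4 and 148 AtHY5 events per Mb of such sequence in the arms. The ratio was thus 0.410 (0.365 to 0.460) for AtPIF4 and 0.347 (0.321 to 0.374) for AtHY5 in sequence without annotation. Noncoding RNA genes were the densest class for both proteins in both places, with 83.4 AtPIF4 and 156 AtHY5 events per Mb in the pericentromeres.

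Density was also set side by side in classes of bins by gene content. Where protein-coding genes filled 50 to 60% of a bin, AtPIF4 had 56.7 events per Mb in 3 pericentromeric bins (45.3 to 70.1) and 58.7 in 30 arm bins (54.9 to 62.7), and AtHY5 had 134 (116 to 154) and 153 (146 to 159). The AtPIF4 intervals overlap almost in full, and the AtHY5 ones overlap by less. Where genes filled 40 to 50%, AtPIF4 had 47.1 events per Mb in 7 pericentromeric bins (40.2 to 54.9) and 48 in 2 arm bins (35.4 to 63.6). AtHY5 had 123 there (111 to 135) and 167 in the 2 arm bins (143 to 194), and these intervals do not overlap. Where genes filled under 10%, a range that no arm bin had, the 21 pericentromeric bins held 23.8 AtPIF4 and 43.1 AtHY5 events per Mb. The density of both proteins was mostly higher where gene content was higher, but not at every step. Pericentromeric bins filled 20 to 30% and 30 to 40% by genes held 42.4 and 33.2 AtPIF4 and 83.8 and 83.4 AtHY5 events per Mb. AtHY5 density was lower in pericentromeric than in arm bins of the 40 to 50% class, but gene content was not alike within it. The 2 arm bins were 48.9% and 49.4% genic, with 88 and 79 AtHY5 events. The pericentromeric bin of 49.4% also held 79, and the other pericentromeric bins were 41.4% to 46.8% genic. The bins also come from chromosomes with different lowest scores, described below. That class has only 2 arm bins, whose 167 per Mb stood above the 153 of arm bins at 50 to 60%. The part of other sequence features was not tested.

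Events of AtPIF4 less often had an AtHY5 event beside them in the pericentromeres. An AtHY5 centre lay within 100 bp of 37.8% of pericentromeric AtPIF4 events (34.9% to 40.8%) and 49.1% of arm AtPIF4 events (47.8% to 50.4%), a difference of -11.2 points (-14.4 to -7.98). With only the 1000 highest scores of each list the difference was -4.05 points and its interval reached 0 (-10.1 to 3.47). The full-list difference was below 0 on all 5 chromosomes, and its interval excluded 0 on 4. Seen from AtHY5, 18.2% of pericentromeric events and 20% of arm events had an AtPIF4 event within 100 bp, a difference of -1.76 points whose interval reached 0 (-3.44 to 0.013) and ended just below it when the ribosomal and AT2G07 places were left out (-3.52 to -0.030). Part of any such share follows from how many bases lie near the other list. The bases within 100 bp of an AtHY5 event made up 1.43% of the pericentromeres and 3.26% of the arms, so the AtPIF4 share was 26.5 times the base share in the pericentromeres and 15.1 times in the arms. For AtHY5 the factors were 27.2 and 15.6. By this measure the factor was larger in the pericentromeres for both proteins, although the share itself was not.

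Distances to the other list were longer in the pericentromeres. AtPIF4 events had their nearest AtHY5 event at a median of 1030 bp in the pericentromeres (669 to 1307 bp) and 108 bp in the arms (98 to 122 bp). Of pericentromeric AtPIF4 events 16.3% had none within 10 kb, against 2.95% of arm events. For AtHY5 the medians were 5785 bp in the pericentromeres and 3161 bp in the arms, and the shares beyond 10 kb were 38.1% and 21.7%.

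Pairs that did meet were less tightly aligned in the pericentromeres. Of 413 pericentromeric pairs within 100 bp, 27.1% had centres 1 or 2 bp apart, against 39.8% of 2942 arm pairs, a difference of -12.7 points (-17.1 to -7.84). Within 20 bp the shares were 52.1% and 54.6%, and that difference (-2.50 points, -7.63 to 2.61) did not exceed counting error. Median offsets were 19 bp in the pericentromeres and 16 bp in the arms.

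The share of events with a neighbour grew with the score in both places. For AtPIF4 it was 25.7% in the lowest quintile of the list by score and 49.2% in the highest quintile in the pericentromeres, against 37.6% and 67.1% in the arms. Without the events of the AT2G07 stretch and the ribosomal RNA block described below, the pericentromeric share of the highest quintile was 52.3% (44.4% to 60%), still below the arm interval of 64.3% to 69.8%. For AtHY5 the shares in the lowest and highest quintiles were 10.2% and 36.3% in the pericentromeres and 10.4% and 40% in the arms. The AtHY5 intervals overlap in every quintile.

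**Figure D4:**
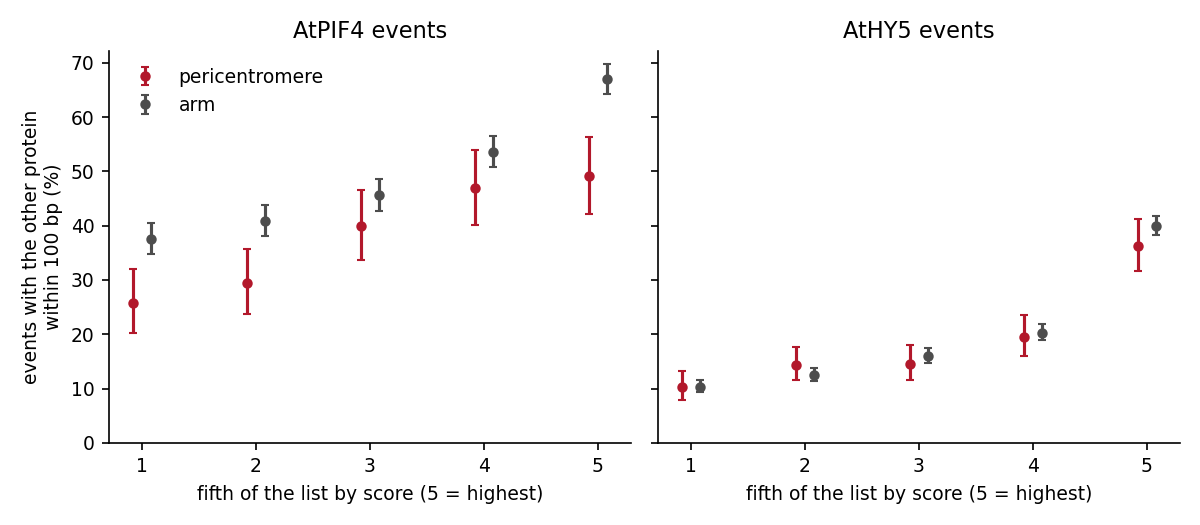
Share of events with an event of the other protein within 100 bp (%, with 95% Wilson intervals) by quintile of the whole list by score, for AtPIF4 (left) and AtHY5 (right). Pericentromeric AtPIF4 points (red) run from 25.7% to 49.2% and lie below the arm points (grey, 37.6% to 67.1%), and the AtHY5 points of both places overlap.

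The score ranks events within a list, and what it measures is not stated. Pericentromeric AtPIF4 events had a median percentile of 47.9 (45 to 51.1), against 50.5 in the arms (49.2 to 51.9), and these intervals overlap. Without the ribosomal block and the AT2G07 stretch described below, the AtPIF4 median was 46.5 (42.7 to 48.6), below the arm interval. Pericentromeric AtHY5 events stood at 46.1 (44.4 to 48.1), below the 50.7 of the arms (49.9 to 51.5). Ranked within each chromosome, the AtHY5 medians were 44.5 and 50.8, and the AtPIF4 medians 48.0 and 50.3. The typical pericentromeric event was thus near the middle of its list, while the very top of each list held many. Of the 51 highest AtPIF4 scores (51 because of a tie at rank 50) 20 were pericentromeric, and so were 19 of the 50 highest AtHY5 scores. Among the 1000 highest the share was 14.1% for AtPIF4 and 10.9% for AtHY5, against 15.5% and 13.3% of the whole lists.

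The lowest score in each list differed by chromosome. For AtPIF4 it was 79 on chromosomes 1 and 5, 92.2 on chromosome 4, 110.3 on chromosome 2 and 117 on chromosome 3. For AtHY5 it was 59 on chromosomes 1 and 5, 61 on chromosome 4, 73.2 on chromosome 2 and 94 on chromosome 3. Within a chromosome the pericentromere and the arm reached almost the same lowest score, so the contrast between them is made at a common floor, whereas densities of different chromosomes are not. With only events at or above the highest of these floors, AtPIF4 density in the 5 pericentromeres ran from 22.3 to 26.1 per Mb, against 25.1 to 43.4 with all events. In the arms it ran from 45.5 to 52.6 AtPIF4 events per Mb, against 47.0 to 74.1 with all events. The AtHY5 density above the floor ran from 40 to 54.9 per Mb in the pericentromeres and from 108 to 116 in the arms. The spread between chromosomes thus narrowed, and each pericentromere still had between 0.424 and 0.574 of its arms' AtPIF4 density and between 0.353 and 0.472 of their AtHY5 density. This floor was chosen after seeing the data.

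**Figure D5:**
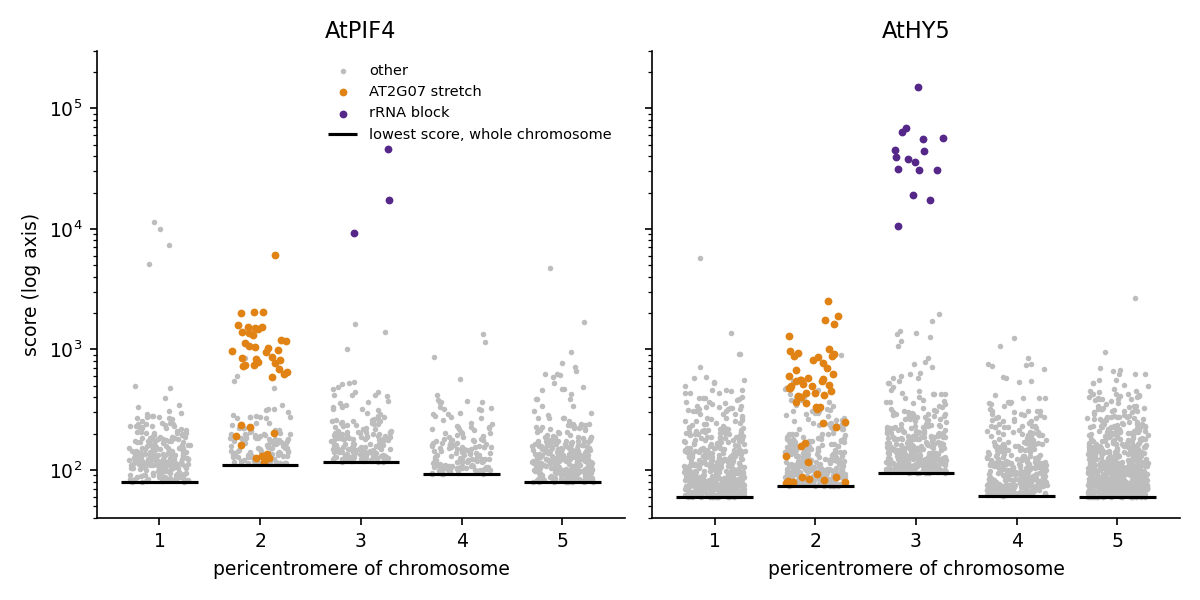
Score of every pericentromeric event (points, log axis) by chromosome, for AtPIF4 (left) and AtHY5 (right), with events within 10 kb of nuclear ribosomal RNA genes in purple, events of the AT2G07 stretch in orange and the lowest score of the whole chromosome as a black line. The highest scores lie in the ribosomal RNA block of chromosome 3, up to 45558 for AtPIF4 and 150414 for AtHY5, and the black lines differ between chromosomes.

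Many of these top scores came from 2 places, which held 13 of the 20 AtPIF4 and 17 of the 19 AtHY5 events just named. Within 10 kb of the nuclear ribosomal RNA genes of chromosome 3 lay 3 AtPIF4 and 16 AtHY5 events, all in the top decile of their lists. The highest AtHY5 event there, at chr3:14194632-14194831 with a score of 150414, was the first of its whole list. The highest AtPIF4 event, at chr3:14196313-14196512 with a score of 45558, was the second of its list, 1187 bp from the nearest AtHY5 event. Such genes stand in long tandem arrays of which an assembly holds only a few copies, and the part of copy number in these scores was not tested. The arms hold ribosomal blocks too. Without them, 5655 of the 5660 arm AtPIF4 events and 14569 of the 14581 arm AtHY5 events remained. The highest arm scores were 61759 for AtPIF4 and 69750 for AtHY5. Whether these lay near ribosomal RNA genes was not tested.

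The other place was the AT2G07 stretch of chromosome 2, a span of 0.716 Mb with 124 protein-coding genes whose identifiers begin with AT2G07. It holds a known insertion of mitochondrial DNA. Its 44 AtPIF4 events had a median percentile of 98.1 and 77.3% were in the top decile of the list, against a median of 59.5 and 4.2% for the 119 AtPIF4 events in the rest of that window. Its 57 AtHY5 events had a median percentile of 94.3 and 66.7% in the top decile, against 46.1 and 4.13% for the 315 others. AtPIF4 density in the stretch was 61.5 per Mb (44.7 to 82.5), against 22.1 in the rest of the window (18.3 to 26.4), and AtHY5 density was 79.6 (60.3 to 103), against 58.5 (52.2 to 65.3). An AtHY5 neighbour within 100 bp was found for 29.5% of its AtPIF4 events (18.2% to 44.2%), against 40.3% in the rest of the window (32.0% to 49.3%). An AtPIF4 neighbour was found for 22.8% of its AtHY5 events (13.8% to 35.2%), against 15.9% in the rest of the window (12.3% to 20.3%). The intervals overlap for both proteins. Reads of mitochondrial DNA in the same extract could not be told apart from those of the insertion in these lists.

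Of the 10 highest AtPIF4 scores outside the ribosomal block, 6 lay outside the AT2G07 stretch too, and 1 of those 6 had an AtHY5 event within 100 bp. Of those 6, 4 lay in 1 gene of 3.94 kb on chromosome 1, AT1G40104, to which the table gives no symbol. These 4 AtPIF4 events had scores of 11351, 10017, 7314 and 5112 and ranks 8, 9, 11 and 13 of the list. The highest lay at chr1:15082743-15082942. The nearest AtHY5 event to any of these events was 31.5 kb away, so this cluster belonged to the AtPIF4 list alone. The part of copy number in its scores was not tested. A further AtPIF4 event of score 4697 at chr5:11705217-11705416 lay 68678 bp from its nearest protein-coding gene, AT5G30520, and 9688 bp from the nearest AtHY5 event. The AtPIF4 event of score 1682 in PDLP7, which encodes a plasmodesmata-located protein, had an AtHY5 event 1 bp away. The best AtPIF4 event of the chromosome 4 window, of score 1332, lay in the pseudogene AT4G06656 at chr4:3842739-3842938.

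Of the 10 highest AtHY5 scores outside the ribosomal block, 6 lay outside the AT2G07 stretch, and 4 of those 6 had an AtPIF4 event within 100 bp. The highest, of score 5778 at chr1:16739530-16739729 in AT1G44050, had an AtPIF4 event of score 482 at 19 bp. The next, of score 2652 at chr5:14844127-14844326 in AT5G37430, had an AtPIF4 event of score 773 at 10 bp. Some stood alone: an AtHY5 event of score 1426 in AT3G28335 was 65640 bp from the nearest AtPIF4 event, and that of score 1732 in the pseudogene AT3G30170, listed under its nearest protein-coding gene AT3G30165, was 14195 bp away.

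Of the 10 pairs with the best summed ranks outside the ribosomal block, 7 lay in the AT2G07 stretch. The best, 6 bp apart at chr2:3327203-3327402 for AtPIF4 (score 6092) and chr2:3327209-3327408 for AtHY5 (score 1623), lay 2358 bp from AT2G07633. The other three lay in AT5G37430, in AT1G44050 and beside EXO. EXO (EXORDIUM) promotes growth in response to brassinosteroids, and its pair had an AtPIF4 score of 1156 and an AtHY5 score of 1238 with centres 16 bp apart, 1331 and 1315 bp from the gene.

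Fewer pericentromeric than arm genes had an event in the body or within 1000 bp. For AtPIF4 these were 561 of 3383 pericentromeric genes (16.6%) and 5787 of 24061 arm genes (24.1%), a difference of -7.47 points (-8.80 to -6.07), where 23.1% of all protein-coding genes had such an event. For AtHY5 they were 1133 pericentromeric genes (33.5%) and 11946 arm genes (49.6%), a difference of -16.2 points (-17.9 to -14.4), against 47.7% of all genes. Neighbouring genes can share an event, so genes are not independent, and these intervals do not allow for that. Not every event goes with a gene counted here. Of the 5660 arm AtPIF4 events 625 lay farther than 1000 bp from any protein-coding gene, and so did 517 of the 1039 pericentromeric ones. For the gene body alone the differences were smaller, -3.80 points for AtPIF4 and -9.16 points for AtHY5. Events of both proteins were held by 359 pericentromeric genes (10.6%) and 4306 arm genes (17.9%), against 17% of all genes. Of the pericentromeric genes holding an AtPIF4 event, 64.0% held an AtHY5 event too (59.9% to 67.9%), against 74.4% in the arms (73.3% to 75.5%). With 4 or more events of both lists there were 72 pericentromeric genes (2.13%) and 1275 arm genes (5.30%).

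The pericentromeric gene with most events was SAP (STERILE APETALA), a regulator of flower and ovule development, with 5 AtPIF4 and 4 AtHY5 events. Its AtPIF4 events had scores from 100.1 to 203 and its AtHY5 events from 90 to 622, all in the body of the gene, and an AtHY5 centre lay within 100 bp of 4 of the 5 AtPIF4 centres. Those 4 include the AtPIF4 events at chr5:13937394-13937593 and chr5:13937397-13937596, which overlap almost in full. They lay 21 and 24 bp from the same AtHY5 event, so these counts may hold 1 site more than once. The strongest pair was 1 bp apart, at chr5:13937069-13937268 for AtPIF4 and chr5:13937070-13937269 for AtHY5. TT8, a basic helix-loop-helix regulator of anthocyanin and proanthocyanidin synthesis, followed with 2 AtPIF4 and 5 AtHY5 events. Its events scored 104 and 154 for AtPIF4 and between 73.9 and 131 for AtHY5. These are middle to low ranks, with 1 pair 2 bp apart in the gene body. RDUF1, a RING-type ubiquitin ligase, had 5 AtHY5 events and 0 AtPIF4 events.

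Of 190 genes in 7 lists of light, clock, hormone, temperature, flavonoid and photosynthesis genes, 32 lay in the windows. Of these 32, 8 had an AtPIF4 event, 12 an AtHY5 event and 7 both, against 55, 90 and 40 of the 158 list members in the arms. In shares, 25% of the pericentromeric members had an AtPIF4 event (13.3% to 42.1%), 37.5% an AtHY5 event (22.9% to 54.7%) and 21.9% both (11.0% to 38.8%). All 3 shares are higher than the 16.6%, 33.5% and 10.6% of all pericentromeric genes. The intervals for AtPIF4 and for AtHY5 take in those values, and the interval for both proteins lies just above its value, with 2 of the 7 genes sharing 1 pair of events. List members in the arms stood higher too, at 34.8%, 57.0% and 25.3%, against 24.1%, 49.6% and 17.9% of all arm genes.

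Among photoreceptors, PHOT1, the blue light receptor of phototropism, had an AtPIF4 event of score 180 and an AtHY5 event of score 181 with centres 2 bp apart in its body. CRY1, a blue light receptor of seedling development, and PHYC, a red light receptor, each had 1 AtHY5 event, of scores 103 and 75, lying 58 and 36 bp beyond the gene, and no AtPIF4 event. SCL21, a GRAS protein of phytochrome A signalling, had none.

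Of the 3 clock genes, LUX, a component of the evening complex, had 3 AtHY5 events of scores 278, 158 and 104, and its nearest AtPIF4 event was 30256 bp away. RVE2, a MYB-like factor, had 2 AtHY5 events, of scores 139 and 73.5, and CDF2, a repressor of CONSTANS, had none. None of the 3 had an AtPIF4 event, which 16.6% of all pericentromeric genes had.

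Of the 9 photosynthesis genes in the windows, the largest list there, 4 held events of both proteins, where 10.6% of all pericentromeric genes did. They were 4 of the 7 list members with both, and neighbouring genes among them are not independent. PSBQ2, an extrinsic subunit of photosystem II, had an AtPIF4 event of score 222 and AtHY5 events of 253 and 166, of which that of 166 lay 1 bp from the AtPIF4 event. The Rubisco small subunit genes RBCS1B and RBCS2B lie next to each other and shared 1 pair 1 bp apart, with an AtPIF4 score of 124 and an AtHY5 score of 109. RBCS3B had its own pair 1 bp apart, with an AtPIF4 score of 134 and an AtHY5 score of 114, and a second AtPIF4 event of score 120. The light-harvesting genes LHCB2.1 and LHCB2.2, the photoprotection gene PSBS, PSBX and ATPC1 had none.

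The remaining lists had 16 members in the windows, of which 4 had an event, where 39.5% of all pericentromeric genes had 1 or more. TT8, of the flavonoid list, is described above. HSFB4, a heat shock factor of root patterning, had an AtPIF4 event of score 172 and an AtHY5 event of score 395 at 66 bp. TT1, a zinc finger protein of seed coat pigmentation, had 1 AtPIF4 event of score 127. ARF8, an auxin response factor of flower development, had 1 AtHY5 event of score 80. The other 7 auxin response factor genes of the windows, ARF12, ARF13, ARF14, ARF15, ARF20, ARF21 and ARF22 on chromosome 1, a group of close relatives, had no event of either protein. HSFA1D, TT2, GID1C and the brassinosteroid oxidases CYP85A1 and CYP85A2 had none either.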

How the data were processed

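DAP-seq event lists of AtPIF4 and AtHY5 (1 library each) were used as deposited. Per the file headers, GEM called the events. The submitters' processing notes name Trim Galore, Bowtie2 and the build TAIR10. Each list gives intervals of 200 bp and a score per event that the authors' caller assigned, whose scale is not stated. Scores were ranked or limited from below within a list.

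The windows were those stated in the text, and chromosome ends were taken as the last event or gene. Genes came from a table of TAIR10.1, which gives no strand or exons, so none of its coordinates are printed. An event was inside a gene when its centre was. Densities have exact Poisson intervals, shares Wilson intervals, differences of shares Newcombe intervals and ratios exact conditional intervals, at 95%. They cover counting error only, and events of 1 library are not independent replicates. Differences of median percentiles have outer bounds from both medians' intervals. No test across samples was possible. The calculation was tested on simulated data. Python 3.11.15, numpy 2.4.6, pandas 2.3.3 and scipy 1.17.1 were used.

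Named events and genes followed a rule: the 10 highest scores per list outside 10 kb of ribosomal RNA genes, the best per window, the 10 best pairs by rank sum, the members of 7 gene lists (LUX stands as PCL1, PSBQ2 as PSBQ-2, PSBS as NPQ4 and CYP85A1 and CYP85A2 as BR6OX1 and BR6OX2 in the table), the genes with most events, and the longest gaps. The AT2G07 group holds only protein-coding genes of the window. The windows, lists and rule were chosen with earlier results of these data known. PGLP1 and AT5G36790 and the same-length genes were singled out after their values were seen. Alternatives changed windows, score limits, distances, gene types and chromosomes.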

Additional observations from a re-analysis of the deposited data

How the results depend on the processing

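Of 194 values recomputed under another choice, 190 kept their direction (the exceptions are the AtHY5 share with a neighbour and both median percentiles) and 152 stayed within the 95% interval of the value reported above. With the windows widened by 0.5 Mb at each end, the AtHY5 density ratio was 0.482 and the genic share differed by -25.7 points for AtPIF4 and -20.7 for AtHY5. With windows narrowed by 0.5 Mb, the AtHY5 density ratio was 0.386 and that inside genes 0.736, the genic share differed by -34.7 points for AtPIF4 and -31.8 for AtHY5, and the share of genes with an AtHY5 event by -18.6. With scores above the median, the AtHY5 density ratio was 0.390 and that far from genes 0.275, its genic share differed by -23.9 points, its median percentile by -1.65 (-3.55 to 0.69), and the share of genes with an event by -5.03 for AtPIF4 and -11.2 for AtHY5. With the 1000 highest scores of each list, the density ratio was 0.465 for AtPIF4 and 0.346 for AtHY5, inside genes 0.686 and 0.555, far from genes 0.388 and 0.265. In that setting the share with a neighbour differed by -4.05 points for AtPIF4 (-10.1 to 3.47) and 1.61 for AtHY5, the AtHY5 genic share by -32.2, the median percentile by 1.98 for AtPIF4 and 0.34 for AtHY5, and the share of genes with an event by -1.83 and -1.77. Both percentile differences and the AtHY5 neighbour share difference were above 0 there, but each interval includes 0. Those intervals were -0.261 to 4.49 and -0.746 to 1.26 for the AtPIF4 and AtHY5 percentiles, and -5.83 to 10.7 for the AtHY5 neighbour share. A turn in direction is thus not shown, and no cause was tested. The AtHY5 neighbour share also stood at 0.0097 with scores above the median, and its interval excluded 0 with wider windows, without the nearest 1 Mb of the arms and within 200 bp. Without chromosome 5 the AtHY5 density ratio was 0.412. Counting all genes of the table, the genic share differed by -7.29 points for AtPIF4 and -7.51 for AtHY5, and the ratio inside genes was 0.638 and 0.533. The share of genes with an event differed by -6.04 points for AtPIF4 and -13.2 for AtHY5 with a flank of 500 bp, by -10.2 and -19.7 with 2000 bp, and by -3.80 and -9.16 for the body alone. With the common score floor, chosen after seeing the data, that share differed by -5.90 and -12.8 points, the AtHY5 genic share by -24.5 and the AtHY5 ratio far from genes was 0.302. Leaving out the ribosomal blocks of windows and arms and the AT2G07 stretch kept all 14 results within their intervals. No paired analysis was possible because each protein has 1 library. Unknown depth limits any comparison between the lists.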
